A study of Mus musculus with 6 samples.

Results

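The 3 genes of the p53 family, Trp53, Trp63 and Trp73, were examined as places where p53 itself binds in mouse spleen. Members were chosen by position alone: a peak counted when it overlapped 1 of the 3 gene bodies, extended by 10 kb on both sides, by at least 1 bp (mm9, GENCODE vM1). This gave 8 peaks of 48115 over 5 lists, at 3 of 37310 annotated genes, with 4 peaks in irradiated B cells (B cells IR), 4 in irradiated non-B cells (non-B cells IR), and 0 in either mock list or in irradiated Trp53-/- spleen (Trp53-/- spleen IR).

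The study mapped p53 by ChIP-seq, in which DNA fragments held by an antibody (NCL-p53-CM5p) are sequenced and piles of fragments are called as peaks. C57/Bl6 mice were left untreated (mock) or given 7 Gy of whole-body irradiation (IR) and taken after 4 h. Trp53+/+ mice of 8 weeks gave splenic B cells, selected with beads against the surface marker B220, and non-B cells, the T cell-enriched remainder. The fifth list came from total spleen of irradiated Trp53-/- mice, unsorted, whose age the labels do not give. Each group was 1 library of chromatin pooled over animals, so no difference has a replicate spread, no test was possible, and 95% Wilson intervals cover counting error only. A bulk library cannot tell p53 binding in fewer cells from weaker binding in all of them. Cell identity could not be checked here, since the lists hold no expression.

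p53, p63 and p73 are related transcription factors that bind DNA as tetramers through a shared element made of paired decamers. p53 is stabilised by DNA damage and drives arrest or death, p63 is best known for the development of stratified epithelia, and p73 for neural development and multiciliated cells. Trp63 and Trp73 each have a start at the 5′ end of the gene, for proteins with a full transactivation domain (TA), and an internal start in an intron, for shorter ΔN proteins that can oppose the others.

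The sequences below are those that matched the p53 response element consensus best inside the main peaks of Trp53 and Trp73, followed by 3 matches that lay in no listed peak: the closest one at Trp73, the closest one at Trp63, and, of 3 at Trp73 with 2 mismatches, the one next to the internal start. An element was a pair of 10-base decamers without a spacer, in which each decamer had to have C as base 4 and G as base 7. At most 3 mismatches were allowed in the other 16 positions. The consensus is its own reverse complement, so both strands were covered. Sequences are the mm9 plus strand, 5′ to 3′, although Trp73 is transcribed from the minus strand, and capitals mark bases that match the consensus.
Trp53 promoter, listed, chr11:69393786-69393805: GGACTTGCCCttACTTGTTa
Trp73 intron 1, listed, chr4:153479980-153479999: AGACAgGTCCAGACTTGCCC
Trp73 intron 1, listed, chr4:153479947-153479966: AAACcAGCTTGGcCcAGCTC
Trp73 intron 1, not listed, chr4:153495846-153495865: AAGCAAGCCgGAGCATGCCT
Trp73 at the internal start, not listed, chr4:153471329-153471348: GGGCAgGCCTcAGCTTGCCC
Trp63 intron 3, not listed, chr16:25782865-25782884: AGGCAAGTgCAGtCATGCCT

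The Trp53 element stood in the short stretch between Trp53 and its neighbour Wrap53, which are transcribed away from each other. That stretch is shown whole, as it is bounded by the starts of both genes, which lie on the next base at either end, and capitals mark the element.
Wrap53 to Trp53, chr11:69393758-69393860, plus strand: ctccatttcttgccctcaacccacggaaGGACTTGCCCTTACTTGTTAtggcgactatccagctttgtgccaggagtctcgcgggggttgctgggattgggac

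The better match at Trp73 is shown with the sequence around it, to give the context of a strong intronic site. Capitals again mark the 20 bases of the element.
Trp73 intron 1, chr4:153479840-153480139, plus strand: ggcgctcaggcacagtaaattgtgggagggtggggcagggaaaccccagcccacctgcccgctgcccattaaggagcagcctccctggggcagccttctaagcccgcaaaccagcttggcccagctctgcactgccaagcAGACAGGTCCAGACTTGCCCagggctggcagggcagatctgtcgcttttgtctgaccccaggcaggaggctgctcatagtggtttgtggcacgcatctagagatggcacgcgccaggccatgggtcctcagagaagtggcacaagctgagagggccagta

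Trp53 and Trp73 each had a listed peak in both irradiated wild-type lists, and Trp63 had none in any list. Over all 37310 genes the share with a peak under the same rule was 41.2% in irradiated B cells and 39.8% in irradiated non-B cells, so 2 of 3 family genes with a peak is not a result by its count. The corresponding shares were 3.51% for the B cell mock list, 1.74% for the non-B cell mock list and 0.0938% for Trp53-/- spleen IR, where no family gene had a peak. The main peak of Trp53 and that of Trp73 ranked high in both lists, and the 4 other member peaks had percentiles between 20.1 and 72.5. The value deposited for each peak was taken as −log10 of the peak p-value. It is not normalised between libraries, and was used to rank peaks within a list.

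**Figure D1:**
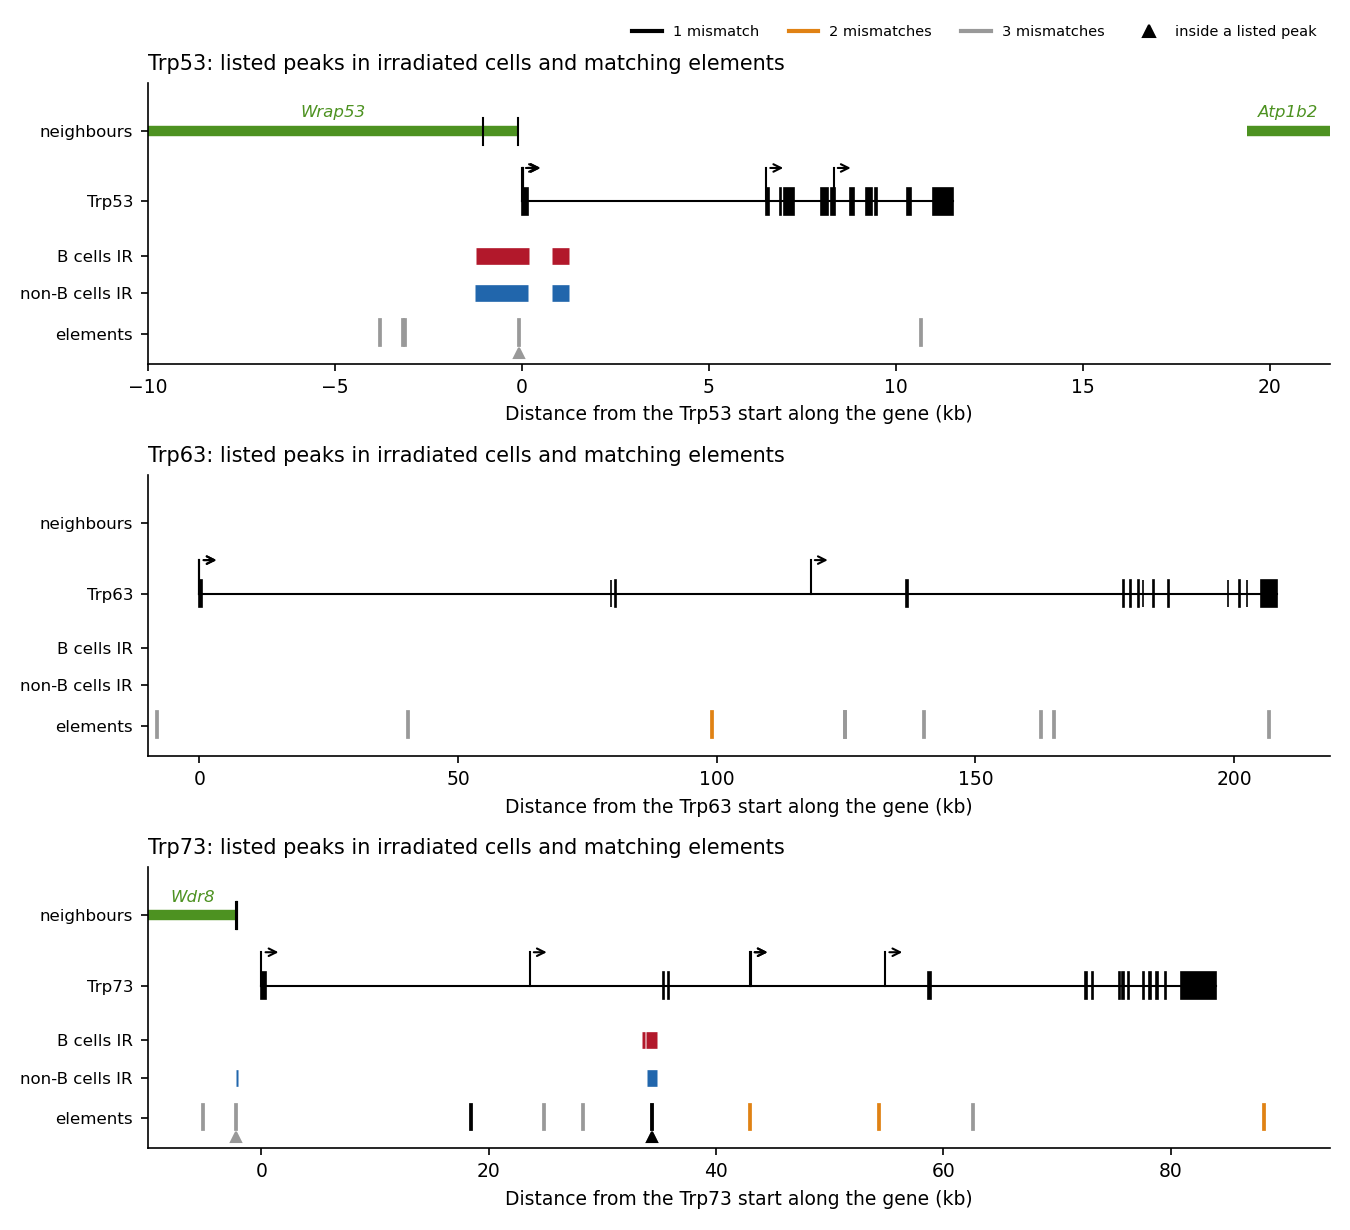
Listed peaks in B cells IR (red) and non-B cells IR (blue) and matching elements (ticks, by number of mismatches) at Trp53, Trp63 and Trp73, against the distance in kb from the start of each gene in its direction of transcription. Black boxes are exons, arrows are annotated starts and triangles mark elements inside a listed peak. The main peak at Trp53 lay over its 5′ end and that of its neighbour Wrap53, and the main peak at Trp73 in its first intron. Trp63 had 9 elements of at most 3 mismatches and no peak. Over the genome 4.47% of such elements were in a peak of either irradiated list.

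At Trp53 (ENSMUSG00000059552.6, chr11:69393861-69405375, plus strand), the main peak lay over the start of the gene. In irradiated B cells it was at chr11:69392635-69394050, 1416 bp wide, with a value of 121.24, rank 755 of 24507. In irradiated non-B cells it was at chr11:69392612-69394022, 1411 bp wide, with a value of 193.6, rank 389 of 21400. The corresponding percentiles, the share of peaks with a lower value, were 96.9 and 98.2. Both lists thus held nearly the same interval, and 1388 bp were shared, or 98.0% of the B cell peak and 98.4% of the non-B cell peak. Over all overlapping peaks the median shared part was 83.1% of the irradiated B cell peak and 98.4% of the irradiated non-B cell peak.

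The Trp53 peak was not centred on Trp53. In irradiated B cells it ran from 1226 bp upstream to 189 bp downstream of the Trp53 start, with 86.6% of its bases upstream. In irradiated non-B cells it ran from 1249 bp upstream to 161 bp downstream, with 88.5% upstream. Most of the peak fell in Wrap53, which encodes a WD-repeat protein of Cajal bodies and telomerase and starts head to head with Trp53 across 103 bp. The Wrap53 body held 1123 bases of the B cell peak and 1146 of the non-B cell peak, against 190 and 162 in the Trp53 body, and the midpoint of both was in intron 1 of Wrap53-003. Of 5 annotated Trp53 starts the peak covered 3: that of Trp53-001, at 69393861, that of Trp53-003, at 69393904, and that of Trp53-002, at 69393907. It also covered the starts of Wrap53-001, at 69392826, and Wrap53-003, at 69393757. A peak at this position cannot be assigned to 1 of the 2 genes.

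The Trp53 element, with 3 mismatches, had its centre 66 bp upstream of the Trp53 start. It was off the middle of the peak, 453 bp from the midpoint in irradiated B cells and 478.5 bp in irradiated non-B cells, on the Trp53 side. Over all peaks, 14.7% in irradiated B cells (3599 of 24507; 14.2 to 15.1) and 14.6% in irradiated non-B cells (3124 of 21400; 14.1 to 15.1) held an element of at most 3 mismatches, against 2.18% and 2.06% of the same windows moved by 10 kb. Among peaks of 900 to 1500 bp, a class near the main peaks in width that was chosen after seeing the data, the shares were 45.3% (452 of 997) and 59.0% (364 of 617), against 5.53% and 4.21% of moved windows. Of 111497 elements of at most 3 mismatches in the genome, 4987, or 4.47%, lay in a peak of either irradiated list. The Trp53 window held 5 such elements, and the one at the start was the only one in a peak. Allowing a spacer of up to 13 bases added 1 match with 3 mismatches, which overlapped the unsplit one.

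A smaller peak lay in intron 1 of Trp53, in both lists. It was at chr11:69394680-69395128 in irradiated B cells, 449 bp wide, with a value of 31.66 and rank 6724, percentile 72.5. In irradiated non-B cells it was at chr11:69394667-69395131, 465 bp wide, with a value of 26.75 and rank 7062, percentile 66.6. It began 819 bp and 806 bp downstream of the start, and was separated from the main peak by 629 bp and 644 bp. The main peak exceeded it 3.83-fold in value in irradiated B cells and 7.24-fold in irradiated non-B cells. These are ratios of the deposited value within a list, do not measure fold differences in binding and are not comparable between lists. The intron 1 peak held no unsplit element of up to 4 mismatches. Its ratio of observed to expected CpG dinucleotides was 0.934 in irradiated B cells and 0.906 in irradiated non-B cells, above the upper quartiles of all peaks, 0.666 and 0.711.

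The 2 remaining annotated Trp53 starts were not covered. The first is in exon 2, 6532 bp into the gene, and its nearest peak edge was 5265 bp away in irradiated B cells and 5262 bp in irradiated non-B cells. Trp53-004 begins in exon 6, 8336 bp into the gene, with the nearest edge 7069 bp and 7066 bp away.

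**Figure D2:**
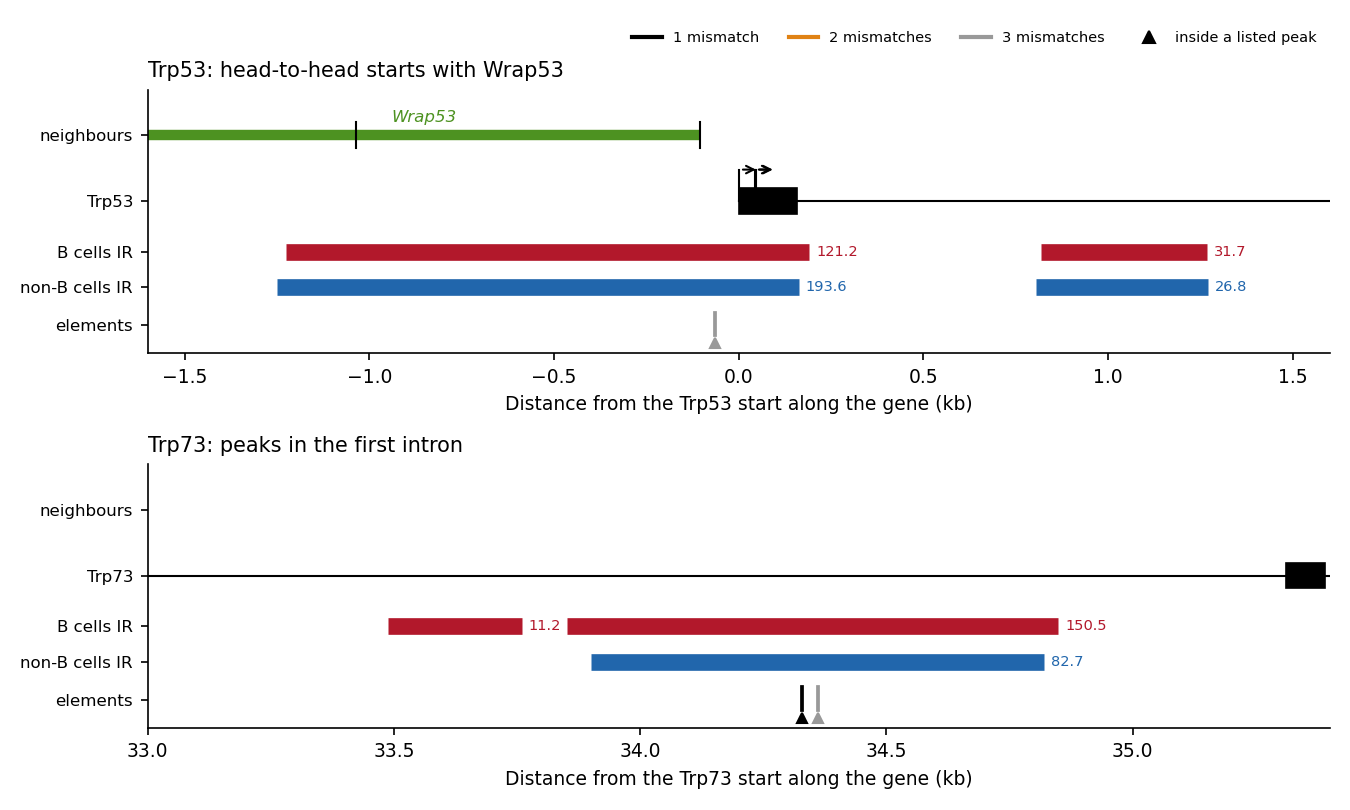
Main peaks of Trp53 (top) and Trp73 (bottom) in B cells IR (red) and non-B cells IR (blue), with the deposited value beside each peak, against the distance in kb from the gene start along the gene. Ticks are elements, black with 1 mismatch and grey with 3: the Trp53 element was 453 bp and 478.5 bp from the peak midpoint and the better Trp73 element 22 bp and 32.5 bp.

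At Trp73 (ENSMUSG00000029026.9, chr4:153430358-153514317, minus strand), the main peak was intronic and far from any annotated start. In irradiated B cells it was at chr4:153479469-153480466, 998 bp wide, with a value of 150.53, rank 493 of 24507, percentile 98.0. In irradiated non-B cells it was at chr4:153479498-153480416, 919 bp wide, with a value of 82.73, rank 1205 of 21400, percentile 94.3. The non-B cell interval lay wholly within the B cell interval, and the 919 bp shared were 92.1% of the latter. The midpoint in irradiated B cells was 34350 bp downstream of the gene start, in intron 1 of Trp73-001 and Trp73-003. It was 8685 bp upstream of the internal start of Trp73-002, in intron 3 of Trp73-001, where ΔN-type transcripts begin.

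The Trp73 peak had its 2 unsplit elements of at most 3 mismatches near the midpoint of the listed interval. The element with 1 mismatch had its centre 22 bp from the midpoint in irradiated B cells and 32.5 bp in irradiated non-B cells, and the one with 3 mismatches 11 bp and 0.5 bp. Allowing a spacer of up to 13 bases added further matches with 3 mismatches. Some overlapped the unsplit elements, and others lay up to 297 bp from the midpoint in irradiated B cells and 307.5 bp in irradiated non-B cells. An element with at most 1 mismatch was held by 5.80% of all irradiated B cell peaks and 6.28% of all irradiated non-B cell peaks, and by 23.5% and 35.5% of those of 900 to 1500 bp. The CpG ratio of the Trp73 peak was 0.278 in irradiated B cells and 0.290 in irradiated non-B cells, below the medians of the lists, 0.310 and 0.336, and below the 0.635 and 0.611 of the Trp53 main peak. Both main peaks lay within the quartiles of all peaks, 0.172 to 0.666 in irradiated B cells and 0.184 to 0.711 in irradiated non-B cells. The 2 main peaks of the family differed in position and best element as listed. The Trp53 peak lay over head-to-head starts, with an element of 3 mismatches away from the interval midpoint. The Trp73 peak lay inside an intron, with an element of 1 mismatch near the interval midpoint. The lists give no summits, so where binding was strongest within either interval is not known.

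Both lists also held a smaller peak in the Trp73 window, but at different places. In irradiated B cells a peak at chr4:153480559-153480829, 271 bp wide, with a value of 11.24 and rank 19536, percentile 20.1, lay 92 bp from the main peak. Its only match of at most 3 mismatches had a spacer of 11 bases between the decamers. In irradiated non-B cells a peak at chr4:153516374-153516566, 193 bp wide, with a value of 22.55 and rank 8930, percentile 57.9, lay over the start of Wdr8, the WD-repeat gene now called Wrap73. Its midpoint was 11 bp upstream of the Wdr8-001 start and 2153 bp upstream of the Trp73 start, and it held an element with 3 mismatches. Neither overlapped a peak of the other irradiated list. Over whole lists, 73.6% of the irradiated B cell list and 85.3% of the irradiated non-B cell list overlapped the other. These shares cover peaks of all ranks, and the study reported that overlap rose with peak enrichment. The share at the ranks of these smaller peaks was not computed, so their lack of overlap is not shown to be unusual. The main value was 13.4 times that of the smaller peak in irradiated B cells and 3.67 times in irradiated non-B cells. Again these are ratios of the deposited value within a list, not of binding.

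The Trp73 starts themselves were not covered. The nearest peak edge to the 5′ start at 153514317 was 20543 bp away in irradiated B cells and 2057 bp in irradiated non-B cells, the latter being the Wdr8 peak. The internal start of Trp73-002 was 8187 bp and 8216 bp from a peak, that of Trp73-003 9885 bp and 10298 bp, and that of Trp73-006 20038 bp and 20067 bp. Within 5 kb upstream to 2 kb downstream, the Trp73 5′ start had 1 peak in irradiated non-B cells and 0 in irradiated B cells, and the 3 starts at the 5′ end of Trp53 had 2 in each. Of 86881 annotated starts, 34.0% had a peak in this window in irradiated B cells and 32.9% in irradiated non-B cells.

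The order of the 2 genes was opposite in the 2 cell populations. In irradiated B cells the Trp73 peak stood above the Trp53 peak, 150.53 against 121.24, and in irradiated non-B cells it stood below, 82.73 against 193.6. Among all genes, 503, or 1.35%, had a peak at least as high as that of Trp73 in irradiated B cells, and 720, or 1.93%, one as high as that of Trp53. In irradiated non-B cells these were 1155 genes, or 3.10%, for Trp73 and 417, or 1.12%, for Trp53. The Trp73 peak was in the top 2.01% of irradiated B cell peaks and the top 5.63% of irradiated non-B cell peaks, a ratio of 2.80. Of 2847 overlapping pairs in the top 10% of either list, 8.64% had a ratio at least as large. For Trp53 the top shares were 3.08% and 1.82%, a ratio of 0.590 of non-B to B cells, and 13.9% of pairs had a ratio as low. These shares of pairs describe each peak alone, in the direction it showed. How often 2 high peaks swap order between the lists was not counted. By peak width the Trp53 peak was above the Trp73 peak in both lists, with percentiles of 99.02 and 99.2 against 96.7 and 96.8. With 1 library per group, whether the order by value differs between populations could not be tested.

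**Figure D3:**
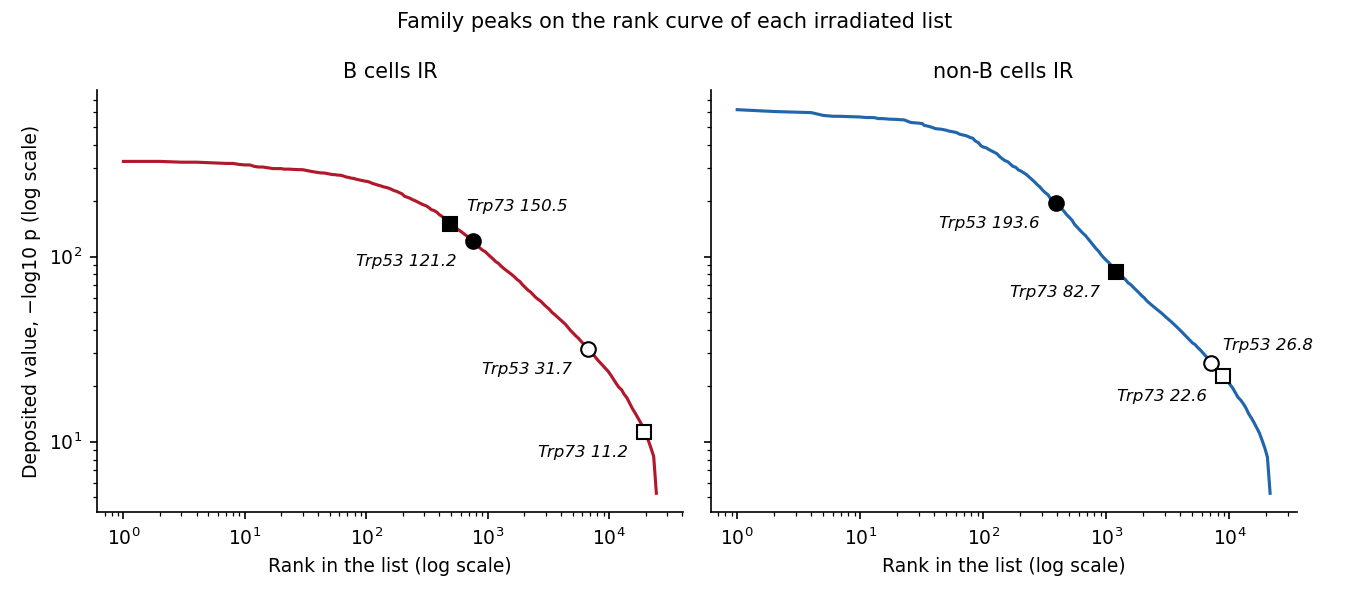
Deposited value (−log10 p, log scale) against rank (log scale) for all peaks of B cells IR (left) and non-B cells IR (right), with the family peaks marked. Circles are Trp53 and squares Trp73, filled for main peaks: Trp73 at 150.53 stood above Trp53 at 121.24 in B cells IR, and at 82.73 below 193.6 in non-B cells IR.

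None of the 8 peaks overlapped a mock peak. The nearest mock peaks to Trp53 were 456.723 kb away in the B cell list and 456.431 kb in the non-B cell list, and those to Trp73 were 3489.79 kb and 3489.88 kb away. Peaks of similar rank were mostly absent from mock too: of the 100 peaks nearest in rank to the Trp53 main peak, 21% (14.2 to 29.98) overlapped a mock peak of B cells, and 24% (16.7 to 33.23) one of non-B cells. For the Trp73 main peak these were 25% (17.5 to 34.3) and 5% (2.15 to 11.2). Read depth is unknown, and the mock lists were shorter, at 1413 and 712 peaks, so a site absent from them was not shown to be unbound. For scale, the highest peak at Cdkn1a, the cell cycle inhibitor, had a value of 318.37 (rank 7) in irradiated B cells and 620.98 (rank 1) in irradiated non-B cells, and 41.16 and 44.35 in mock. That at Mdm2, the ubiquitin ligase of p53, had 223.88 (rank 179) and 297.33 (rank 189). The family peaks were below both genes in each irradiated list.

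The Trp53-/- list had 83 peaks and none at the family genes. At Trp53 this says little, since the locus itself is altered in those mice and which bases are missing is not given in the sources used here. At Trp73, which lies on another chromosome, the nearest peak of that list was 83391.1 kb away. That library was unsorted spleen, so genotype and cell makeup cannot be told apart.

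Trp63 (ENSMUSG00000022510.8, chr16:25683849-25892188, plus strand) had no listed peak over its 208.34 kb body or within 10 kb of it. The nearest peaks on the left were at chr16:25426468-25426659 in irradiated B cells (12.68) and chr16:25426515-25426764 in irradiated non-B cells (12.77), 257.19 kb and 257.085 kb from the gene, with Tprg as the nearest gene. On the right they were at chr16:25958850-25959142 in irradiated B cells (18.75), 66.662 kb away, and at the start of Il1rap, an interleukin-1 receptor subunit, in irradiated non-B cells (35.97), 689.372 kb away. The gene thus lay in a stretch without peaks of 532.19 kb in irradiated B cells and 1154.8 kb in irradiated non-B cells. Such stretches were common by extent: the 986 and 434 at least as long held 54.9% and 39.5% of the sequence. Of 954 protein-coding genes over 200 kb, 436, or 45.7%, had no peak in irradiated B cells, and 464, or 48.6%, none in irradiated non-B cells. Absence at Trp63 was therefore not unusual for a gene of its length.

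**Figure D4:**
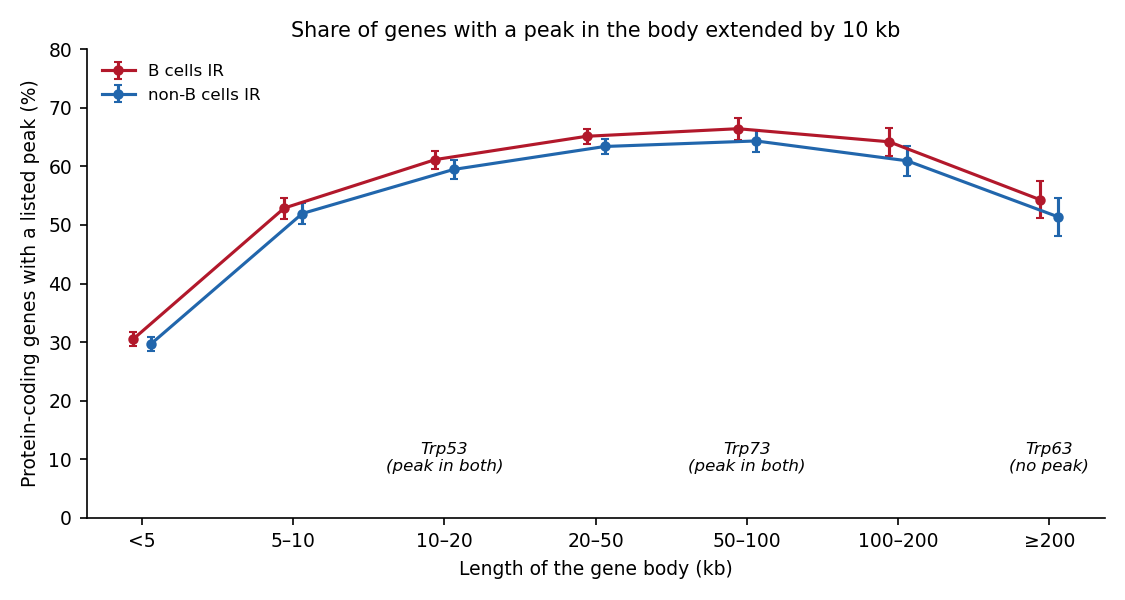
Share of protein-coding genes with a listed peak (%) against the length of the gene body (kb) in B cells IR (red) and non-B cells IR (blue), with 95% Wilson intervals. The class of Trp63 stood at 54.3% and 51.4%, that of Trp53 at 61.2% and 59.5%, and that of Trp73 at 66.4% and 64.3%.

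Trp63 also had matching sequence that was not listed. Its window held 9 elements of at most 3 mismatches, of which a pair overlapped each other, and 0 were in a peak. The best, with 2 mismatches, lay in intron 3, 19128 bp upstream of the internal start shared by Trp63-001, Trp63-002, Trp63-005 and Trp63-006. Per 100 kb the Trp63 window held 3.94 such elements, against 4.20 over the genome, 15.9 at Trp53 and 10.6 at Trp73. In the genome 12.9% of elements of at most 2 mismatches (3327 of 25692) were in a peak of either irradiated list. For elements of at most 3 mismatches the share was 4.47% (4987 of 111497), so 0 of 9 is not a result by its count.

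Trp73 had the most close matches of the 3 windows, and most were not listed. Of 5 elements with at most 2 mismatches, 1 was in a peak. An element with 1 mismatch, at chr4:153495846-153495865 in intron 1, 5141 bp upstream of the Trp73-003 start, was in no list, while the one in the main peak, also with 1 mismatch, was among the strongest sites. Over the genome 34.1% of elements with at most 1 mismatch (1599 of 4685; 32.8 to 35.5) lay in a peak of either irradiated list. Another with 2 mismatches was 56 bp upstream of the internal Trp73-002 start, within an exon of the antisense transcript Gm13116-001, and was in no list either.

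The peaks just outside the windows were of lower value than the main peaks. The nearest to Trp53 lay at the start of Fxr2, an RNA-binding protein gene, 40.728 kb from the gene in irradiated B cells (20.27) and 40.729 kb in irradiated non-B cells (31.85). The nearest to Trp73 lay at the start of Tprgl, 20.543 kb away in irradiated B cells (14.1) and 20.496 kb in irradiated non-B cells (13.13). Among the members, only the Wdr8 peak needed the extension to be counted, at 2057 bp from the Trp73 body, and the others overlapped a gene body.

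A list of 26 partner genes was also counted, which holds regulators, cofactors, neighbours and genes named after p53. It was fixed with earlier results of these data known, so the shares below describe the list and test nothing. In irradiated B cells 22 had a peak, or 84.6%, and in irradiated non-B cells 22, against 53.4% and 51.8% of all protein-coding genes. In mock 4 had one in the B cell list and 2 in the non-B cell list, or 15.4% and 7.69%, against 4.45% and 2.27% of protein-coding genes. In Trp53-/- spleen IR 0 had one, against 0.125%. In this list Wrap53 shares its highest peak with Trp53 in both irradiated lists, and Wdr8 shares one with Trp73 in irradiated non-B cells. The highest was Trp53inp1, a stress-induced nuclear protein that promotes p53 activity, with 175.75 in irradiated B cells and 363.42 in irradiated non-B cells, and 21.47 and 47.94 in mock. Crebbp, an acetyltransferase that acts as a p53 cofactor, had 149.31 and 139.66, and its peak held an element of at most 3 mismatches. Rchy1, a ubiquitin ligase of p53, had 108.29 and 155.46, and Hipk1, a kinase that binds p53, 68.72 and 50.25. The highest peaks of Trp53inp1, Rchy1 and Hipk1 held no such element in either irradiated list. An element as defined here has no spacer, so pairs with a spacer are not covered. Of the enzymes and cofactors, Ep300, the paralogue of Crebbp, had no peak in either irradiated list, nor did Yap1, a p73 coactivator, or Ppp1r13b, an ASPP protein that binds p53.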

How the data were processed

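Of 6 libraries, 5 were p53 ChIP-seq with a peak list each, and the input library was not analysed here. Per the study's methods, low-quality bases were masked, reads were aligned to mm9 and MACS called peaks at a p-value limit that corresponds to a value of 8, on chromatin pooled over animals. The submitters' processing notes name BWA 0.6.2 and SAMtools. The value deposited for each peak was taken, from its distribution, as −log10 of a peak p-value made by the authors. Values ran down to 5.01. Those below 8 made up 31.6% of the B cell mock list and 20.9% of the non-B cell mock list. The shares were 4.50% in irradiated B cells, 4.53% in irradiated non-B cells and 9.64% in Trp53-/- spleen IR. Read as −log10 p, such values lay below the stated limit. The column has no header, so its unit was not settled and it was used to rank peaks within a list. Read totals are not in the lists, so depth is unknown. Median peak widths were 340 and 315 bp after irradiation (B and non-B cells), 95 and 93 bp in mock and 82 bp in Trp53-/- spleen IR.

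Groups came from the sample labels. Coordinates count from 1 on mm9 (NCBIM37), with GENCODE vM1 genes. Ranks order values from the highest. Elements were searched in each peak, and the same windows moved by 10 kb gave the background. The genes named beside the members were those overlapping or nearest to a member peak, the nearest peaks outside the windows, the 5 partner genes of highest percentile, and Cdkn1a and Mdm2; partners without a peak were named after the values were seen. Members and lists were chosen with earlier results of these data known. The overlap and element steps were tested on simulated peaks. Computation was in Python 3.11.15 with numpy 2.4.6 and pysam 0.24.0, samtools 1.23.1 indexed the genome, and matplotlib 3.10.9 drew the figures.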

Additional observations from a re-analysis of the deposited data

How the results depend on the processing

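Of 125 recomputed values, 88 stayed within the 95% interval of the main value (shares and percentiles) or within 1.5 times of it (counts), and 37 did not. Most of the 88 were counts of 0 peaks at a family gene that stayed at 0. Of the settings applied to these, only the extension of 50 kb could have changed the count. The tally is therefore no measure of robustness. The class of peaks 900 to 1500 bp wide was chosen after seeing the data. Trp73 had 1 peak in non-B cells IR with the gene body alone, since the Wdr8 peak lies outside it, and 4 with an extension of 50 kb. Ranking by width gave percentiles of 99.02 and 99.2 for Trp53 and 96.7 and 96.8 for Trp73, in B and non-B cells IR. The share of genes with a peak, given for mock then irradiated B cells and for mock then irradiated non-B cells, was 4.45, 53.4, 2.27 and 51.8% for protein-coding genes, 1.65, 26.8, 0.860 and 25.8% for the gene body alone, 8.77, 61.6, 4.59 and 60.2% with 50 kb, and 2.47, 40.5, 1.39 and 39.1% for values of at least 8. In Trp53-/- spleen IR it was 0.0616% for the body and 0.201% with 50 kb. With at most 2 mismatches 1 family peak held an element in irradiated B cells and 1 in irradiated non-B cells, both the Trp73 main peak. The share of all peaks with an element in B and non-B cells IR was 10.04 and 10.3% with at most 2 mismatches, 20.3 and 19.5% with 4, 34.7 and 32.8% with spacers of 0 to 13 bases, and 45.3 and 59.0% in the width class. The 3 windows held 2 elements with at most 1 mismatch and 25 with at most 3, of which 4 were in an irradiated peak. No paired analysis was possible because no group has more than 1 library, and so none could be left out either. Depth is unknown, so absence from a list sets no limit on binding.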
